A study of Mus musculus with 3 samples.

Results

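The cells described here were chosen from mouse trunk by their transcripts of 4 endothelial genes. A cell was a barcode with at least 4000 UMIs (unique molecular identifiers, which count captured RNA molecules), at least 500 genes and at most 10% of UMIs from mitochondrial genes. A cell was taken when Pecam1, Cdh5, Emcn and Cldn5 together had at least 4 UMIs and Cdh5 at least 1, when the macrophage genes C1qa, C1qb and Csf1r together had at most 4, and when the neuronal gene Elavl3 had 0. This rule took 218 of 19567 cells: 55 of 6313 at E11.5 (0.871%, exact Clopper-Pearson 95% interval 0.657 to 1.13%), 52 of 6140 at E12.5 (0.847%, 0.633 to 1.11%) and 111 of 7114 at E13.5 (1.56%, 1.29 to 1.88%). The trunks ran from C3 to T2, were freed of forelimbs and thoracic organs, kept the neural tube and the mesoderm, and were dissociated with TrypLE, an enzyme that releases single cells. The embryos were untreated as far as the labels say, and strain, genotype and sex were not given in the sources used here. Each stage is 1 droplet library, made from a pool of 3 littermates, so the data hold no replicate of a stage and no difference was tested. Values are given as CPM, the UMIs of a gene summed over a set of cells and scaled to 1000000 UMIs of that set. Intervals are exact and cover counting error only. "Past the fold" means a ratio of at least 2 in either direction. Values given in threes are for E11.5, then E12.5, then E13.5.

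Endothelial cells line blood and lymphatic vessels. They grow by VEGF acting through its receptor tyrosine kinases, hold together through VE-cadherin and claudin junctions, and take arterial identity under Notch, venous identity with Nr2f2 and lymphatic identity with Prox1. In the embryonic trunk, vessels that enter the neural tube acquire barrier transporters under Wnt signals, while capillaries of muscle and fat acquire caveolae and proteins that move fatty acids from blood into tissue.

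The cells taken by the rule were of 2 kinds. Over 24 genes that most endothelial cells express and the rule did not read, such as Kdr (the main VEGF receptor), Tie1 and Esam, 159 cells held 0.174 to 1.51% of their UMIs and the other 59 held 0 to 0.108%. No cell lay between 0.108 and 0.174%, and the line was set at 0.15% after these values were seen. The 159 are called marker-rich below, 54 of them from the E11.5 library, 28 from E12.5 and 77 from E13.5, or 0.855, 0.456 and 1.08% of all cells. The 59 are called marker-poor, 1 from E11.5, 24 from E12.5 and 34 from E13.5, or 0.0158, 0.391 and 0.478%.

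**Figure D1:**
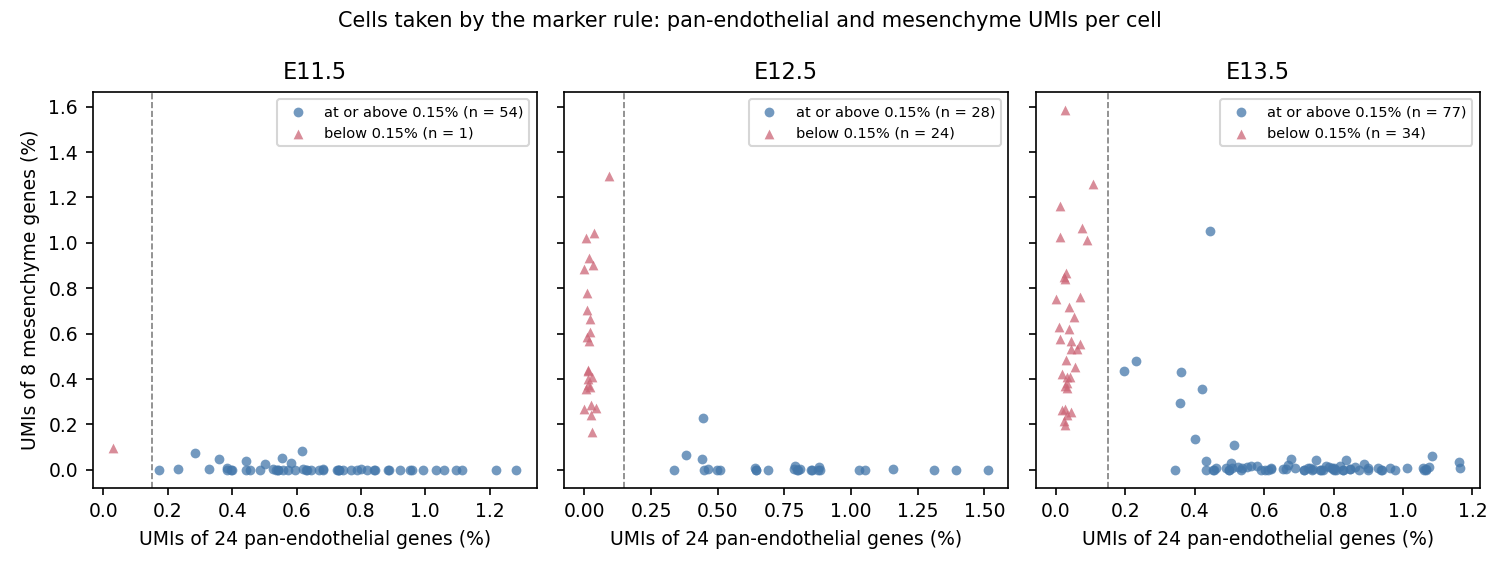
Each point is a cell taken by the rule, with the percent of its UMIs from 24 pan-endothelial genes on the x axis and from 8 mesenchyme genes on the y axis, in 1 panel per library. Marker-rich cells (circles) lie right of the dashed line at 0.15% and mostly near 0 mesenchyme UMIs, while marker-poor cells (triangles) lie left of it at medians of 0.504% mesenchyme UMIs at E12.5 and 0.561% at E13.5.

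The label was set beside further endothelial genes. Sox17 and Flt4 were read neither by the rule nor by the split. Both are among the 25 genes named below for their ratio in these cells, so they are no independent check. Sox17 was at 131, 133 and 169 CPM in the marker-rich cells and Flt4 at 67.7, 104 and 85.8. Neither had a UMI in the marker-poor cells of E12.5 and E13.5. The 25 listed endothelial transcription factors together were at 1372 and 1057 CPM in those marker-poor cells. In the same libraries they were at 3043 and 2942 in marker-rich and 474 and 396 in the other cells. Foxc1 and Foxc2, of that list, were higher in marker-poor cells, as given further below. Kdr, one of the 24 genes of the split, so that its difference between the kinds was set by the split, was at 579 CPM at E11.5, 658 a day later and 774 at E13.5 in the marker-rich cells and had a UMI in 51, 28 and 75 of the 54, 28 and 77. In the marker-poor cells of E12.5 and E13.5 Kdr was at 1.66 and 1.46 CPM, against 1.58 and 3.56 in the other cells of those libraries. Among the rule's own genes, Cdh5 was at 588, 804 and 997 CPM in marker-rich cells and at 293 and 341 in marker-poor cells, whereas Pecam1 was at 329, 489.5 and 525 and at 6.65 and 2.91. Cldn5 was at 976, 1051 and 1131 in marker-rich cells and at 0 and 11.6 in marker-poor cells, so the marker-poor cells met the rule mainly through Cdh5.

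The edge of the rule ran through the marker-poor cells. With 4 as the minimum, 0, 8 and 9 cells of the 3 libraries in order of stage had exactly 4 UMIs of the 4 genes, while 1, 15 and 11 cells with a Cdh5 UMI stayed outside with 3. The median sum was 54, 72 and 38 UMIs in marker-rich cells and 5 and 5.5 in the marker-poor cells of E12.5 and E13.5. Outside the rule, 5, 9 and 11 cells also held at least 0.15% pan-endothelial UMIs. They remained among the other cells, which are all cells of the library that the rule did not take.

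The libraries held 103383215, 94155624 and 113402193 UMIs in all, and the median marker-rich cell held 19393, 32086.5 and 13602 UMIs against 12481, 11030 and 10248 in the other cells. A doublet caller marked 3, 0 and 6 of the cells taken, and 1 cell taken shared its barcode with a cell of another library. RNA free in the droplets was estimated from haemoglobin at 1.53, 1.21 and 1.70% of the UMIs of the cells taken, and in 1 marker-poor cell of E13.5 haemoglobin was 31.1% of UMIs. Of the marker-rich cells, 0, 1 and 8 also held at least 0.1% mesenchyme UMIs. The Y-linked gene Ddx3y was at 17.7, 43.8 and 0 CPM in marker-rich cells and 15.8, 35.3 and 1.64 in the other cells, so stage and the sex of the pooled embryos cannot be told apart.

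Against the other cells of the same library, all 218 cells together had 678 genes past the fold upward in all 3 libraries, 6.94% of 9773 compared, and 168 downward, 1.72%. In the marker-rich cells alone these were 765 (8.33% of 9182) and 310 (3.38%). The cells were chosen by transcripts, so these counts describe the choice and nothing was read from them. The 25 genes that a rule on the size of the ratio named held receptors (Kdr, Flt4, Tie1, Aplnr, Robo4, Cd93, Adgrl4, Scarf1), junction and adhesion proteins (Esam, Icam2, Pcdh12, Gja4) and the Tie2-associated phosphatase Ptprb. They also held Sox17, a transcription factor of arteries, Prnd, Gpihbp1, Myct1, Plvap, Mmrn1, Klhl4, Ccm2l, Ushbp1, Fam167b, Gimap4 and Depp1.

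**Figure D2:**
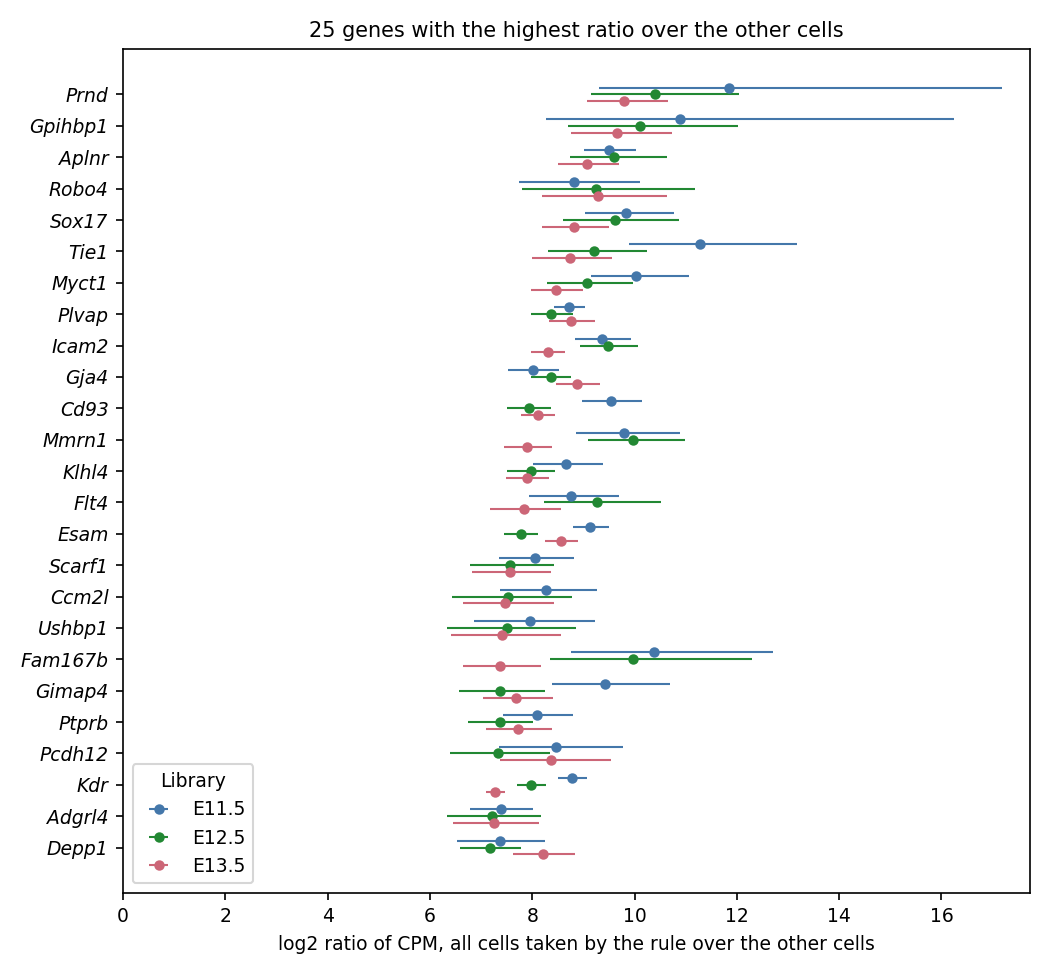
Points give the log2 ratio of CPM in all cells taken by the rule over the other cells, for 25 named genes (rows) in the 3 libraries (colours), with exact 95% counting intervals as bars. Each gene lay above a log2 ratio of 7 in each library, and Prnd had the highest lower end, with ratios from 9.80 to 11.85.

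The promoters of 3 of these genes are shown because their transcripts were high together in the marker-rich cells: Robo4, a guidance receptor of endothelium, Tie1, an orphan partner of the angiopoietin receptor, and Kdr. All 3 are among the 24 genes of the split. Sequences are RefSeq windows of GRCm38.p6, 250 bases before to 50 after the annotated start, 5′ to 3′ on the gene's strand, whereas the UMIs were counted on GRCm39. Capitals mark AGGAAG or its other strand CTTCCT, letters that ETS factors such as Erg and Fli1 often bind.
Robo4, chr9:37401722-37402021, plus strand: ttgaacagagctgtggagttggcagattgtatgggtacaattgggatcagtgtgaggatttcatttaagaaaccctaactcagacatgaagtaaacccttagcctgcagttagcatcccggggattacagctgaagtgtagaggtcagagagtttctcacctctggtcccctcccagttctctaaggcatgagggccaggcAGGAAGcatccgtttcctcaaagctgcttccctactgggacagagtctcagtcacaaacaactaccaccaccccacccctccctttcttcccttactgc
Tie1, chr4:118489800-118490099, minus strand: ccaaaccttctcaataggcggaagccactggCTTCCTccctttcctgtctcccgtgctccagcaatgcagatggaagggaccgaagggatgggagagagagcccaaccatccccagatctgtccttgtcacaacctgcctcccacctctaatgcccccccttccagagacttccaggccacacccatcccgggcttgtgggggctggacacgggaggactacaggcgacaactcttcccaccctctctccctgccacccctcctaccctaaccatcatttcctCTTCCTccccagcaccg
Kdr, chr5:75978406-75978705, minus strand: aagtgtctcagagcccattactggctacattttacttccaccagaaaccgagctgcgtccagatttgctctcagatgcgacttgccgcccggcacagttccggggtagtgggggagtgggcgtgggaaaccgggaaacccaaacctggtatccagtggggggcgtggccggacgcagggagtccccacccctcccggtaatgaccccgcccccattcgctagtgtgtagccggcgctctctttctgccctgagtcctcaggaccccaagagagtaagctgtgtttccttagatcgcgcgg
The Robo4 window held the letters 49 bases before the start, the Tie1 window held them at 2 places, and the Kdr window held none. Of the 25 named genes 14 were in the table and 7 of these held the letters, against 38.4% of all 27025 genes in it. A match is a description of the window and not a binding site.

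The receptors of the VEGF pathway were higher in marker-rich than in the other cells of every library, where Kdr and Flt1 are among the 24 genes that set the marker-rich cells apart. All 5 of Kdr, Flt1, Flt4, Nrp1 and Nrp2 were past the fold over the other cells, where 8.33% of all genes were. The median log2 ratio of the 5 was 7.87 against -0.01 over all genes. Flt1, a decoy receptor for VEGF, was at 227 CPM at E11.5, 211 a day later and 243 at E13.5 against 1.67, 0.827 and 1.03 in the other cells. Nrp1, a co-receptor that nerve and mesenchyme cells also carry, was at 108, 147 and 154 against 23.9, 42.4 and 71.1. The ligand Vegfa was lower than in the other cells, at 4.03, 16.4 and 5.32 CPM in marker-rich cells and 28.1, 30.8 and 29.9 in the other cells, with log2 ratios of -2.80, -0.91 and -2.49. Vegfd had no UMI in the marker-rich cells and was at 2.40, 5.85 and 19 CPM in the other cells. Vegfc, a ligand of Flt4 that drives lymphatic growth, was past the fold upward and Vegfb downward among the 3 ligands with enough UMIs to compare, which left out Vegfd and Pgf. Vegfc was at 30.6, 30.7 and 43.2 against 12.6, 11.8 and 15.1.

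The angiopoietin receptors had the same arrangement. Tek, the receptor Tie2, was at 81.4, 76.7 and 80.5 CPM against 0.297, 1.27 and 3.81, and Tie1 at 110.4, 136 and 116 against 0.0440, 0.140 and 0.195. Both are among the 24 genes that set the marker-rich cells apart, so their difference was set by the split. Angpt1, the activating ligand that mural and mesenchymal cells supply, was at 2.42, 0 and 0.592 in marker-rich cells and 11.47, 12.1 and 12.8 in the other cells. Angpt2, which endothelium itself releases, was at 15.3, 24.1 and 11.8 against 4.48, 3.61 and 3.89, carried by 6, 8 and 11 marker-rich cells.

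Among 22 endothelial transcription factors with enough UMIs, 16 were past the fold upward and none downward, where 8.33% and 3.38% of all genes were. The median log2 ratio of the 22 was 3.10. Sox17 was at 131, 133 and 169 CPM against 0.143, 0.102 and 0.267, Sox18 at 282, 415 and 256 against 0.473, 0.941 and 1.45, and Erg at 37.9, 59.1 and 63.9 against 0.891, 2.45 and 2.02. Sox18 and Erg are among the 24 genes that set the marker-rich cells apart. The 6 that did not pass in all 3 libraries were Foxc1, Foxc2, Meox1, Meox2, Nr2f2 and Mecom. Foxc1, for example, was at 58.8, 54.8 and 26.03 against 50.8, 31.3 and 12.4 in the other cells. Etv2, the factor that starts the endothelial programme in the earlier embryo, had a UMI in 0, 1 and 1 cells. Of the haemogenic genes, which mark endothelium that gives blood cells, Gfi1 had no UMI and Runx1 was seen in 3, 2 and 3 cells. Kit, also counted among them, was seen in more cells and is given further below.

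Junction genes and the basement membrane followed, where 8.33% of all genes were past the fold upward over the other cells and 3.38% downward. Of 9 junction genes compared, 6 were past the fold upward, among them F11r (JAM-A) at 152, 193 and 145 CPM against 4.15, 3.43 and 5.64 and Tjp1 (ZO-1) at 170.1, 215 and 209 against 39.7, 38.5 and 44.95. Jam3 was past it downward, at 25.8, 37.2 and 21.9 against 86.9, 93.5 and 78.8. The junction list also holds Esam, one of the 24 genes of the split. Of 16 basement membrane and integrin genes, 10 were upward and none downward. Col4a1, a chain of the type IV collagen sheet under vessels, was at 563, 704 and 940.0 against 42.7, 58.1 and 78.96, and Hspg2 (perlecan) at 279, 284 and 477 against 17.6, 24.3 and 41.3.

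Adhesion molecules for leukocytes were unevenly represented. Icam2, present on resting endothelium and one of the 24 genes of the split, was at 242, 435 and 447 CPM against 0.363, 0.369 and 1.01. Icam1 was at 53.2, 49.3 and 61.5 against 0.693, 2.01 and 11.96. The inflammatory selectin Sele had no UMI in marker-rich cells, where 3 UMIs would be 2.42, 3.29 and 1.77 CPM, and Selp had 1 cell with a UMI. Vcam1 was at 0.806, 5.48 and 6.51 in marker-rich cells and 20.7, 40.1 and 84.5 in the other cells, with log2 ratios of -4.69, -2.87 and -3.70. Signals from endothelium to mural cells were upward for 5 of 7 genes, where 8.33% of all genes were. Pdgfb, for example, which recruits pericytes, was at 75.8, 76.7 and 110.0 against 0.528, 1.67 and 2.97.

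Notch and BMP genes were mixed. Of 14 Notch pathway genes, 8 were past the fold upward and Notch2 downward, the latter at 4.84, 12.05 and 4.73 CPM against 24.7, 32.4 and 27.5. Of 16 genes of BMP and TGF-beta signalling, 4 were upward and 2 downward, where 8.33% and 3.38% of all genes were. Acvrl1, an endothelial BMP receptor, was at 38.7, 31.8 and 47.9 against 0.836, 1.16 and 2.10. Eng, on the same list, is one of the 24 genes of the split. Downward were the receptor Bmpr1a, at 4.03, 5.48 and 5.92 against 47.6, 49.7 and 53.1, and the target Id2, at 70.1, 76.7 and 46.7 against 329, 216 and 201.

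Between stages, all 218 cells together had 1001 genes past the fold upward from E11.5 to E13.5, 10.2% of 9862, and 264 downward, 2.68%. The marker-rich cells alone had 482 upward, 5.37% of 8978, and 271 downward, 3.02%. For the same genes the other cells had 671 (7.47%) and 316 (3.52%). Of the cells taken, 1 of 55 was marker-poor at E11.5 and 34 of 111 at E13.5. The genes with the highest stage ratio over all cells taken (among them Ptgds, Plac9, Slc7a11, Vtn, Nbl1, Osr1, Col6a3, Gjb2, Ranbp3l, Ogn and Lox) had no UMI at E11.5. Ptgds, prostaglandin D synthase, was at 0, 7.92 and 486 CPM over all cells taken, at least 203-fold higher at E13.5 against a floor of 3 UMIs, but at 0, 3.29 and 1.18 in the marker-rich cells and 14.97 and 1680.0 in the marker-poor cells of E12.5 and E13.5. Stage is therefore described in the marker-rich cells from here on. In bulk sums of this kind, fewer cells with a transcript and less transcript per cell cannot be told apart, so the number of cells with a UMI is given where it differs.

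Among the listed groups of vessel genes, fatty acid handling had the highest median stage ratio. Of 9 such genes with at least 20 UMIs, 6 were past the fold upward and none downward, where 5.37% and 3.02% of all genes were. The median log2 ratio of E13.5 over E11.5 was 2.72 in marker-rich cells, 0.67 in the other cells and -0.02 over all genes in marker-rich cells. The summed level of the 13 listed genes was 859, 2048 and 2996 CPM in marker-rich cells and 1307, 1241 and 1306 in the other cells. Cav1, the coat protein of caveolae, was at 57.2 CPM at E11.5, 367 a day later and 809 at E13.5, in 25, 24 and 73 cells, a log2 ratio of 3.82 (3.48 to 4.19). The other cells were at 1.09, 2.56 and 8.69. Fabp4, a fatty acid carrier of capillaries and fat, was at 74.95, 348 and 545 in 11, 18 and 42 cells, with a log2 ratio of 2.86 (2.55 to 3.19). Gpihbp1, which carries lipoprotein lipase to the capillary lumen, was at 20.95, 93.1 and 138 in 13, 17 and 46 cells, and Cd36, a fatty acid transporter, at 8.87, 15.3 and 65.1 in 5, 8 and 29 cells. In each of these genes the E12.5 library lay between the other two.

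Cavin2, another caveola coat protein and not on that list, had the same order. It was at 16.9, 176 and 345 CPM with a log2 ratio of 4.35 (3.73 to 5.05), against 3.34 in the other cells. Meox2 and Tcf15, which together activate fatty acid uptake genes in endothelium, were at 5.64, 25.2 and 60.3 and at 102, 114 and 169.8. The ratio was past the fold for Meox2, 3.42 (2.32 to 4.77), and not for Tcf15, 0.74 (0.43 to 1.06). Fabp5, a carrier found in many cells, was at 563, 1061 and 1181, with a log2 ratio of 1.07 (0.94 to 1.19). Lpl, the lipase itself, was at 8.87, 7.67 and 4.73 in marker-rich cells and 24.1, 23.9 and 37.8 in the other cells. Pparg, a regulator of fat cells, was seen in 0, 0 and 5 marker-rich cells.

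**Figure D3:**
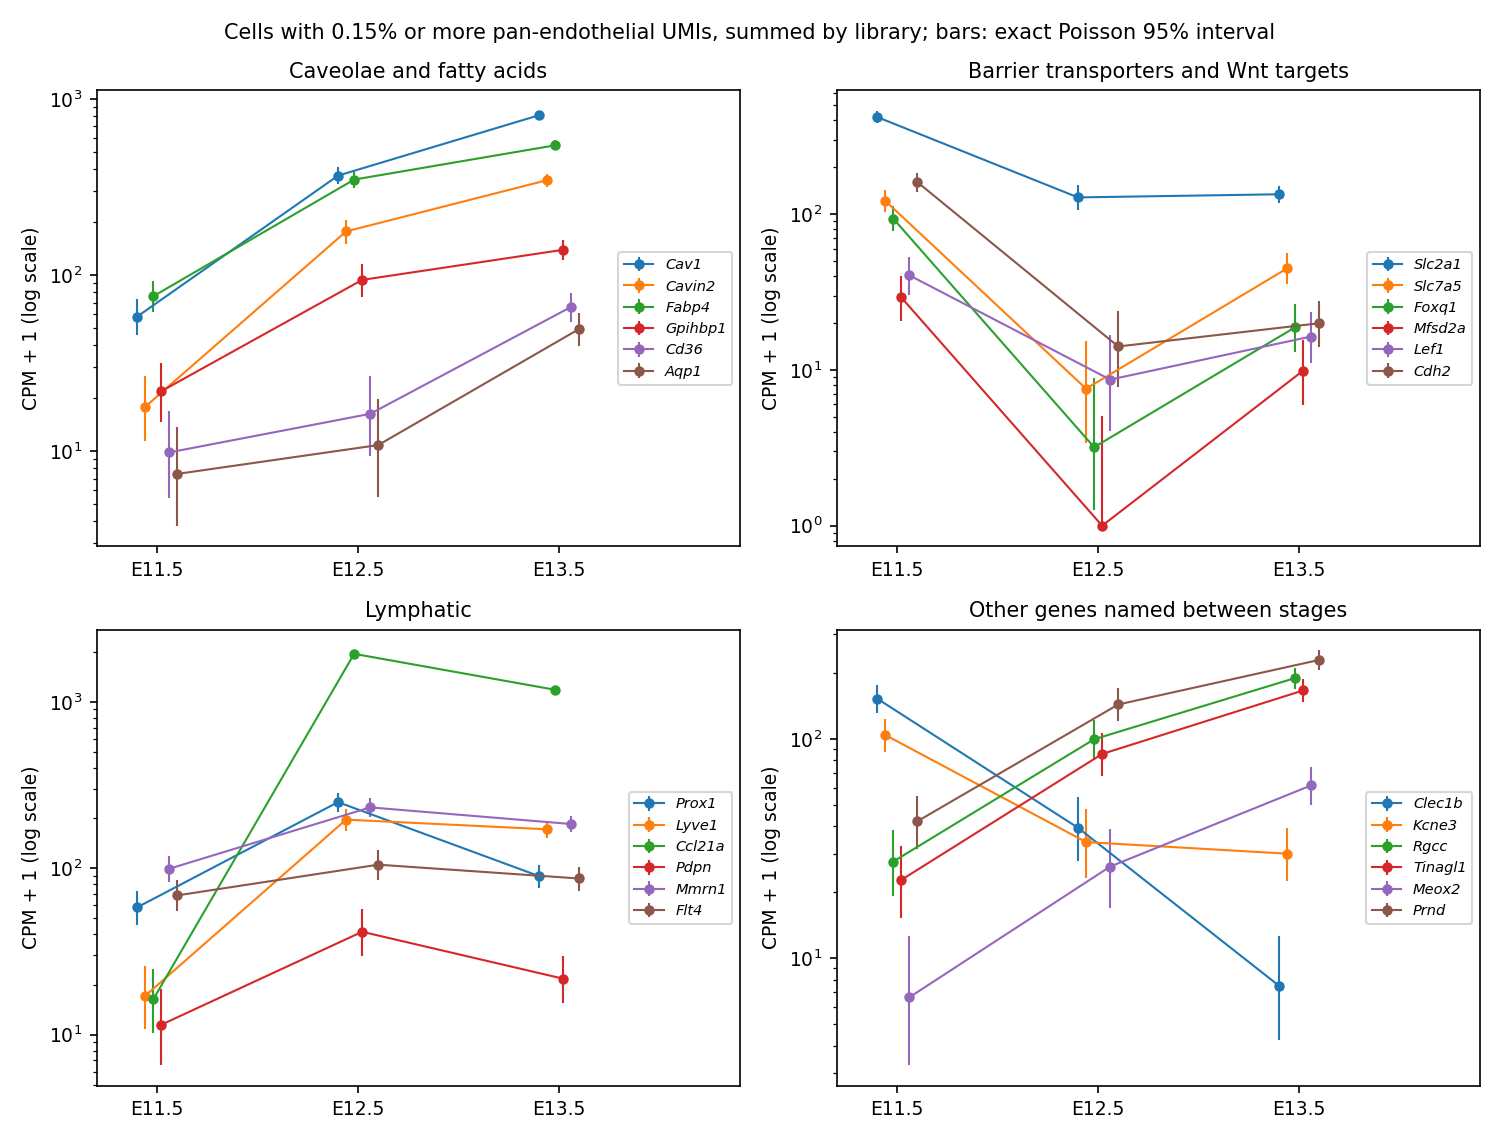
Lines join the summed level (CPM + 1, log scale) of 6 genes per panel in the marker-rich cells of the 3 stages, with exact Poisson 95% intervals as bars. Cav1 stood at 57.2, 367 and 809 CPM and Ccl21a at 15.3, 1941 and 1180.1, whereas Clec1b stood at 152, 38.3 and 6.51.

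The rule for named genes, kept to genes with a UMI in at least 20% of marker-rich cells at the higher stage, gave 12 genes higher at E13.5. These were Sult1a1, Cavin2, Samd9l, Mustn1, Hoxd9, Abcb1b, Meox2, Pard6g, Tinagl1, Rgcc, Meox1 and Rdm1, the highest ratios among 297 genes that met the conditions. Tinagl1, a matrix protein of vessels, was at 21.8, 84.3 and 165 CPM against 5.07, 3.26 and 3.70 in the other cells, a log2 ratio of 2.92 (2.35 to 3.55) against -0.46. Rgcc, a regulator of the cell cycle, was at 26.6, 98.6 and 188, a log2 ratio of 2.82 (2.30 to 3.39). Meox1, a homeobox factor, was at 7.25, 35.04 and 49.1 in 7, 12 and 33 cells. Sult1a1, a sulfotransferase, had no UMI at E11.5 and was seen in 28 of 77 cells at E13.5, at least 9.79-fold higher. Without the width condition the named genes also held Ndufa4l2 and Kcnj8, genes of mural cells, in 5 and 8 cells at E13.5.

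Markers of some other cells differed with stage in the marker-rich cells, and their part in the stage ratios was not tested beyond the values given here. The 10 mural genes together were at 41.1, 41.6 and 272 CPM, all 10 with a UMI at E13.5, and a median of 0 per cell at E13.5. Of 7 mural genes compared between stages 5 were past the fold upward, with a median log2 ratio of 4.46, above that of the fatty acid genes. Acta2, smooth muscle actin, was at 2.42, 4.38 and 98.2 in 2, 2 and 10 cells. The 8 mesenchyme genes together were at 81.4, 214 and 383, against 1006, 2278 and 5166 in the other cells. Between stages 7 of the 8 were past the fold upward, with a median log2 ratio of 2.22 against 2.81 in the other cells. Against the other cells 5 of 5 compared were past the fold downward, where 3.38% of all genes were. Of all genes 5.37% were past the fold upward between stages. The 10 erythroid genes were at 86.2, 230.0 and 341, with 5 of 6 compared past the fold upward between stages. Neuron genes were lower at E13.5, at 121, 113 and 53.2, as were 5 Schwann and neural crest genes, at 53.2, 5.48 and 1.77. The 6 neural progenitor genes together were at 90.3, 33.9 and 30.8. At E11.5 their median per cell was 0 and the highest cell was at 3934 CPM. The 4 chondrogenic genes together were at 23.4, 197 and 1.77. Leaving out marker-rich cells with at least 0.1% mesenchyme UMIs gave stage log2 ratios of 3.87 for Cav1, 2.81 for Fabp4, 3.03 for Tinagl1 and 3.48 for Meox2, against 3.82, 2.86, 2.92 and 3.42 with them. The counts of genes past the fold were then 427 upward and 315 downward, in place of 482 and 271. The number of genes compared without these cells is not given.

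Of the 12 genes lower at E13.5 by the same rule (Clec1b, Enpp2, Car2, St8sia1, Cyp26b1, Cdh2, Ptgis, Tpbg, Slc16a3, Tiam1, Trpc6 and Slc39a8), Clec1b had the largest ratio. Clec1b, the receptor for podoplanin known from platelets, was at 152 CPM at E11.5, 38.3 a day later and 6.51 at E13.5, in 32, 10 and 8 cells, a log2 ratio of -4.54 (-5.57 to -3.67). The other cells were at 0.374, 0.814 and 0.632. The platelet and megakaryocyte genes Pf4, Gp9, Gp1bb, Ppbp and Itga2b together were at 8.87, 89.8 and 11.8 in marker-rich cells, with a different order over the stages. Cdh2 (N-cadherin) was at 159.6, 13.1 and 18.9, a log2 ratio of -3.08 (-3.66 to -2.53), and Cyp26b1, which degrades retinoic acid, at 35.5, 4.38 and 4.14, a ratio of -3.10 (-4.49 to -1.94). Slc39a8, a metal transporter, was at 45.9, 8.76 and 9.46 against 6.05, 4.64 and 3.45 in the other cells.

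Among the arterial, venous, tip cell, lymphatic and barrier groups, barrier genes had the lowest stage median. It was -0.59 in marker-rich cells and 0.04 in the other cells. Signals to mural cells (6 compared) and haemogenic genes (2 compared) had lower medians, -0.62 and -1.06. The 21 barrier genes together were at 1942, 1187 and 1413 CPM in marker-rich cells and 1139, 1412 and 2086 in the other cells. Against the other cells 1 of 9 compared was past the fold upward, where 8.33% of all genes were. Of 19 compared between stages, 7 were past the fold downward (Slc2a1, Mfsd2a, Slc7a5, Slc16a1, Lef1, Foxq1 and Foxf2) and 2 upward (Slco1c1 and Slc38a5). Of all genes 3.02% were downward and 5.37% upward. Slc2a1, the glucose transporter of the blood-brain barrier, was at 419 CPM at E11.5, 127 a day later and 133 at E13.5, a log2 ratio of -1.65 (-1.89 to -1.43). Foxq1, a forkhead factor of brain endothelium, was at 92.7, 2.19 and 17.7 in 13, 2 and 5 cells, and the lipid transporter Mfsd2a at 28.2, 0 and 8.87 in 7, 0 and 4 cells. Slco1c1, a thyroid hormone transporter, was at 3.22, 0 and 11.2 and Slc38a5, an amino acid transporter, at 2.42, 2.19 and 17.2, in 2, 1 and 5 cells.

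A subset of cells carried many of these transcripts. Marker-rich cells with at least 2 UMIs of Mfsd2a, Slco1c1, Slc38a5, Foxq1 and Slc7a5 together, called barrier-like, were 14 of 54, 2 of 28 and 9 of 77. Thinned to 4000 UMIs per cell they were 10, 1 and 5. Of the other cells 5.10, 2.53 and 2.81% met the same rule. At E11.5, where the subset was large enough to describe, genes that the subset's rule did not read differed between barrier-like and remaining marker-rich cells. Slc2a1 was at 1123 against 150.3 CPM, Slc3a2, the partner chain of Slc7a5, at 592 against 64.6, and Lef1 and Apcdd1, both Wnt targets, at 111 against 12.2 and 178 against 2.23.

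Further genes differed between the barrier-like and remaining cells of E11.5. Cdh2 was at 499 against 30.1 CPM, Foxf2 at 64.2 against 3.34, and carbonic anhydrase Car2 at 228 against 5.57. Spock2 was at 123 against 0. Klf2, the flow-induced factor, was at 1079.6 against 286. Lower in them were Nr2f2 at 37.9 against 166, Hoxa5 at 8.75 against 73.5 and the mitotic genes Top2a at 84.6 against 339 and Mki67 at 20.4 against 96.9. Plvap, a protein of fenestrated and immature vessels that mature barrier endothelium lacks, was at 531 against 497, a log2 ratio of 0.10 (-0.16 to 0.35).

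The barrier-like cells were chosen by Slc7a5 among other genes and made up more of the E11.5 than of the E13.5 cells, so the shift of Slc7a5 without them was set by the choice. Without them, the stage log2 ratio was -0.46 for Slc2a1 in place of -1.65, 0.29 for Slc7a5 in place of -1.47 and -0.21 for Lef1 in place of -1.36. It was -3.85 for Clec1b, -2.40 for Cdh2 and -1.77 for Car2. Of the fatty acid genes, Cav1, Fabp4, Gpihbp1 and Cd36 stayed past the fold upward without them, at 3.64, 2.72, 2.73 and 2.13. The others are not given without them. Sums outside the subset held 536 genes past the fold upward and 279 downward, against 482 and 271 with the subset. The number of genes compared outside it is not given, so these counts are no shares.

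Arterial genes were higher at E13.5 more often than lower. Of 15 compared, 5 were past the fold upward (Gja4, Gja5, Unc5b, Cxcl12 and Bmx) and none downward, where 5.37% and 3.02% of all genes were. The median log2 ratio of the 15 was 0.57 against -0.34 in the other cells. Gja4 (connexin 37) was at 128, 451 and 399.9 CPM in 13, 10 and 34 cells, a ratio of 1.64 (1.39 to 1.90). Gja5 (connexin 40) was at 38.7, 101 and 98.8, carried by 1, 4 and 12 cells, so a single cell held all its UMIs at E11.5. Unc5b, a guidance receptor, was at 41.9, 96.4 and 94.1 against 6.95, 3.23 and 2.89 in the other cells. The Notch ligand Dll4 was at 54.8, 75.6 and 58.6 and the receptors Notch1 and Notch4 at 129, 158 and 181 and 29.8, 29.6 and 34.3. None of 12 Notch genes compared passed the fold between stages.

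Cells with at least 2 UMIs of Gja4, Gja5 and Hey1 together, called arterial-like, were 13 of 54, 13 of 28 and 28 of 77 marker-rich cells, and 5, 5 and 14 after thinning to 4000 UMIs. Of the other cells 5.85, 3.50 and 1.37% met the same rule. Efnb2, the arterial ephrin, was higher in arterial-like than in remaining marker-rich cells in each library, with CPM of 139 against 38.6 at E11.5, 186 against 57.01 at E12.5 and 211 against 60.9 at E13.5. Jag1, a Notch ligand, was at 112 against 24.9, 89.7 against 15.4 and 71.1 against 3.73 over the same 3 libraries. The chemokine receptor Cxcr4 was at 73.02 against 4.98, 83.1 against 17.5 and 80.1 against 3.73 and its ligand Cxcl12 at 15.97 against 1.25, 41.6 against 6.58 and 65.4 against 4.97.

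Arterial-like cells also held more Vegfc, Mecom and Id1. Vegfc was at 61.6 against 13.7, 59.1 against 2.19 and 76.7 against 6.22 CPM. Mecom, a zinc finger factor, was at 137 against 29.9, 112 against 32.9 and 142 against 26.1, and Id1, a BMP target, at 217 against 68.5, 254 against 83.3 and 498 against 103. Id1 over all marker-rich cells was at 121, 169 and 310.0, a stage log2 ratio of 1.36 (1.09 to 1.63) against -0.14 in the other cells. The venous apelin receptor Aplnr was lower in arterial-like cells, at 162 against 359, 59.1 against 303 and 168 against 317.

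Venous-like cells, with at least 2 UMIs of Nr2f2, Aplnr and Ephb4 and none of the 3 arterial genes, were 30, 14 and 37 of the marker-rich cells, and 32.5, 24.4 and 14.3% of the other cells also met that rule. Nr2f2 and Ephb4 are not restricted to vessels. None of 6 venous genes passed the fold between stages, where 5.37% of all genes passed it upward and 3.02% downward. Aplnr was at 289, 181 and 239 CPM against 0.396, 0.140 and 0.316 in the other cells, and Nr2f2 at 131, 223 and 159 against 125, 87.3 and 40.8. Unc5b was lower in venous-like than in remaining marker-rich cells, at 19.4 against 60.98, 28.9 against 153 and 30.03 against 126, and Sox17 at 70.4 against 183, 89.04 against 169 and 70.7 against 218. The rule placed every arterial-like cell among the remaining cells, so these differences may in part be set by the choice. The median venous-like cell held 16276.5, 22549 and 10875 UMIs, against 19393, 32086.5 and 13602 over all marker-rich cells.

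Prox1, the factor of lymphatic identity, marked a subset of cells. Cells with a Prox1 UMI and a UMI of Lyve1 or Flt4, called lymphatic-like, were 11, 10 and 13 of the marker-rich cells, and 0.0799, 0.0986 and 0.400% of the other cells. After thinning they were 5, 7 and 10. Of 11 lymphatic genes compared between stages, 3 passed the fold upward (Lyve1, Ccl21a and Reln) and none downward, where 5.37% and 3.02% of all genes did. Ccl21a, the chemokine that guides dendritic cells into lymphatics, was at 15.3 CPM at E11.5, 1941 a day later and 1180.1 at E13.5, in 3, 10 and 15 cells, a log2 ratio of 6.27 (5.62 to 7.003), or 7.51 with the top cell of each library left out. Lyve1, a hyaluronan receptor, was at 16.1, 195 and 170.4 in 6, 7 and 12 cells. Macrophages also carry Lyve1. The rule left out cells with more than 4 UMIs of 3 macrophage genes, so macrophage levels in the cells taken were limited by it, and 8 other macrophage genes together were at 10.5, 15.3 and 10.1 CPM in marker-rich cells against 69.8, 190.3 and 462 in the other cells.

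The lymphatic-like cells held their other markers more clearly at the later stages. Ccl21a was at CPM of 61.9 against 1.05 at E11.5, 5730.4 against 0 at E12.5 and 6148 against 97.3 at E13.5. Reln, a matrix glycoprotein that lymphatics secrete, was at 10.3 against 0, 181 against 0 and 119 against 0.720, and Pdpn (podoplanin) at 34.4 against 3.16, 113 against 3.31 and 99.2 against 3.60. Mmrn1 was at 145 against 84.2, 559 against 62.9 and 823 against 43.95, log2 ratios of 0.78, 3.15 and 4.23. Nrp2, the Vegfc co-receptor, was at 447 against 128, 1294 against 131 and 1104 against 153. All 5 had higher ratios at E12.5 than at E11.5 or no UMI outside the subset at E12.5.

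Plvap, Flt1, Sox17 and Igfbp3 were lower in lymphatic-like than in remaining marker-rich cells, and Kdr was not. Plvap was at CPM of 354 against 553 at E11.5, 77.6 against 578 at E12.5 and 82.6 against 396 at E13.5. Flt1 was at 99.8 against 266, 6.47 against 316 and 66.1 against 281 and Sox17 at 68.8 against 150.5, 35.6 against 182 and 26.4 against 199.6. Igfbp3 was at 114 against 206, 16.2 against 891 and 56.2 against 562. Kdr was at 568 against 582, 753 against 609 and 1021 against 720.5, with log2 ratios between -0.04 and 0.50. The Prox1 level over all marker-rich cells, 57.2, 249 and 88.7 CPM, was read by the subset's rule and is a description.

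Cells with at least 2 UMIs of Esm1, Apln and Angpt2, called tip-like for the sprouting cells that lead new vessels, were 14, 16 and 36 of the marker-rich cells and 4, 3 and 10 after thinning, so the count depended on the depth of the cells. Of 13 tip cell genes compared between stages, 2 were past the fold upward (Unc5b and Igfbp3) and 2 downward (Kcne3 and Adm), where 5.37% and 3.02% of all genes were. Kcne3, a potassium channel subunit, was at 103, 32.9 and 28.99 CPM against 0.154, 0.0254 and 0.438 in the other cells, a log2 ratio of -1.83 (-2.34 to -1.35). In tip-like against remaining marker-rich cells it was at 225 against 45.2, 43.8 against 3.99 and 37.2 against 8.31, and Mcam at 180.2 against 86.8, 125 against 35.9 and 167 against 54.04. Of the marker-rich cells 5, 0 and 5 met none of the 5 subset rules, and the subsets overlapped, so they are not separate kinds of cell. Both tip-like and arterial-like were 4, 6 and 17 cells, and both tip-like and venous-like 5, 9 and 17. Of the lymphatic-like cells 3, 5 and 2 were also arterial-like and 6, 5 and 6 also venous-like. Of the barrier-like cells 6, 0 and 6 were also arterial-like and 7, 2 and 3 also venous-like.

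Of 8 flow response genes, 2 passed the fold upward between stages (Aqp1 and Cav1) and 1 downward (Edn1). Among all genes compared between stages, 5.37% passed it upward and 3.02% downward. Klf2 was at 505, 348 and 363 CPM, a log2 ratio of -0.48 (-0.64 to -0.32), whereas in the other cells it was at 11, 34.9 and 135. The endothelin gene Edn1 was at 64.5, 35.04 and 31.9 in 7, 5 and 17 cells, and Aqp1, a water channel, at 6.45, 9.86 and 48.5 in 5, 3 and 19 cells. No junction gene of 10 compared passed the fold. Of 16 basement membrane and integrin genes 4 passed it upward (Col15a1, Lamc1, Sparc and Itga5), with Col15a1 at 127, 185 and 265, a ratio of 1.06 (0.79 to 1.33). None of the 24 pan-endothelial genes or the 5 VEGF receptors passed the fold, with medians of 0.17 and 0.42. The 24 genes, Kdr and Flt1 among them, chose the marker-rich cells, so their stage ratios may in part be set by the choice. Over all cells taken, 2 of the 24 passed the fold downward and none upward, where 2.68% and 10.2% of all genes did.

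Cell cycle genes were near the level of the other cells. The 20 S phase genes together were at 1802, 1590.1 and 1260.0 CPM in marker-rich cells and 2057, 1277 and 1514 in the other cells, and the 20 genes of G2 and M phase at 3994, 3298 and 3685 and 4514, 2725 and 3158. None of the 40 passed the fold against the other cells, where 8.33% of all genes passed it upward and 3.38% downward. Between stages 2 of the 20 S phase genes, Cdc6 and Dtl, passed it downward, where 3.02% of all genes did. Immediate early genes, which dissociation can induce, were together at 1760.2, 1887 and 2141 in marker-rich cells and 1417, 1737 and 3346 in the other cells. Their median stage log2 ratio was 0.42 in marker-rich cells against 2.44 in the other cells.

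Hox genes, whose clusters record position along the body axis, were low in the marker-rich cells. The 12 anterior genes together were at 147, 109.5 and 107 CPM against 925, 603 and 291 in the other cells, and the 15 middle genes at 153, 172 and 163 against 1278, 1337 and 479. Of 5 anterior genes compared, 2 were past the fold downward in all 3 libraries, and of 5 middle genes 3, where 3.38% of all genes were. Hoxb9 was at 8.87, 4.38 and 5.92 against 240.5, 219.5 and 41.2, and Hoxc4 at 8.87, 3.29 and 2.37 against 127, 83.5 and 52.6. The other cells differ in makeup by stage, with 6 neuron genes together at 1836, 1406 and 288 CPM, and the part of this in their Hox levels was not tested.

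Hoxd8 in all 3 libraries, and Hoxd9 at E12.5 and E13.5, were higher in marker-rich than in the other cells. Hoxd8 was at 15.3 CPM at E11.5, 51.5 a day later and 46.1 at E13.5 in marker-rich cells, in 12, 18 and 32 cells, against 8.07, 12.4 and 18.5 in the other cells, with log2 ratios of 0.92, 2.05 and 1.32. Hoxd9 was at 1.61, 23 and 24.3, in 1, 10 and 18 cells, against 1.496, 1.88 and 3.15. Both were past the fold upward between E11.5 and E13.5, at 1.59 (0.85 to 2.40) and 3.91 (1.97 to 7.005). At E12.5 Hoxd9 was at 61.4 against 3.31 CPM in lymphatic-like against remaining marker-rich cells, and at E13.5 at 76.02 against 12.97. Hoxa5 was past the fold downward, at 55.6, 24.1 and 8.87, a ratio of -2.65 (-3.56 to -1.83) against -2.26 in the other cells.

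**Figure D4:**
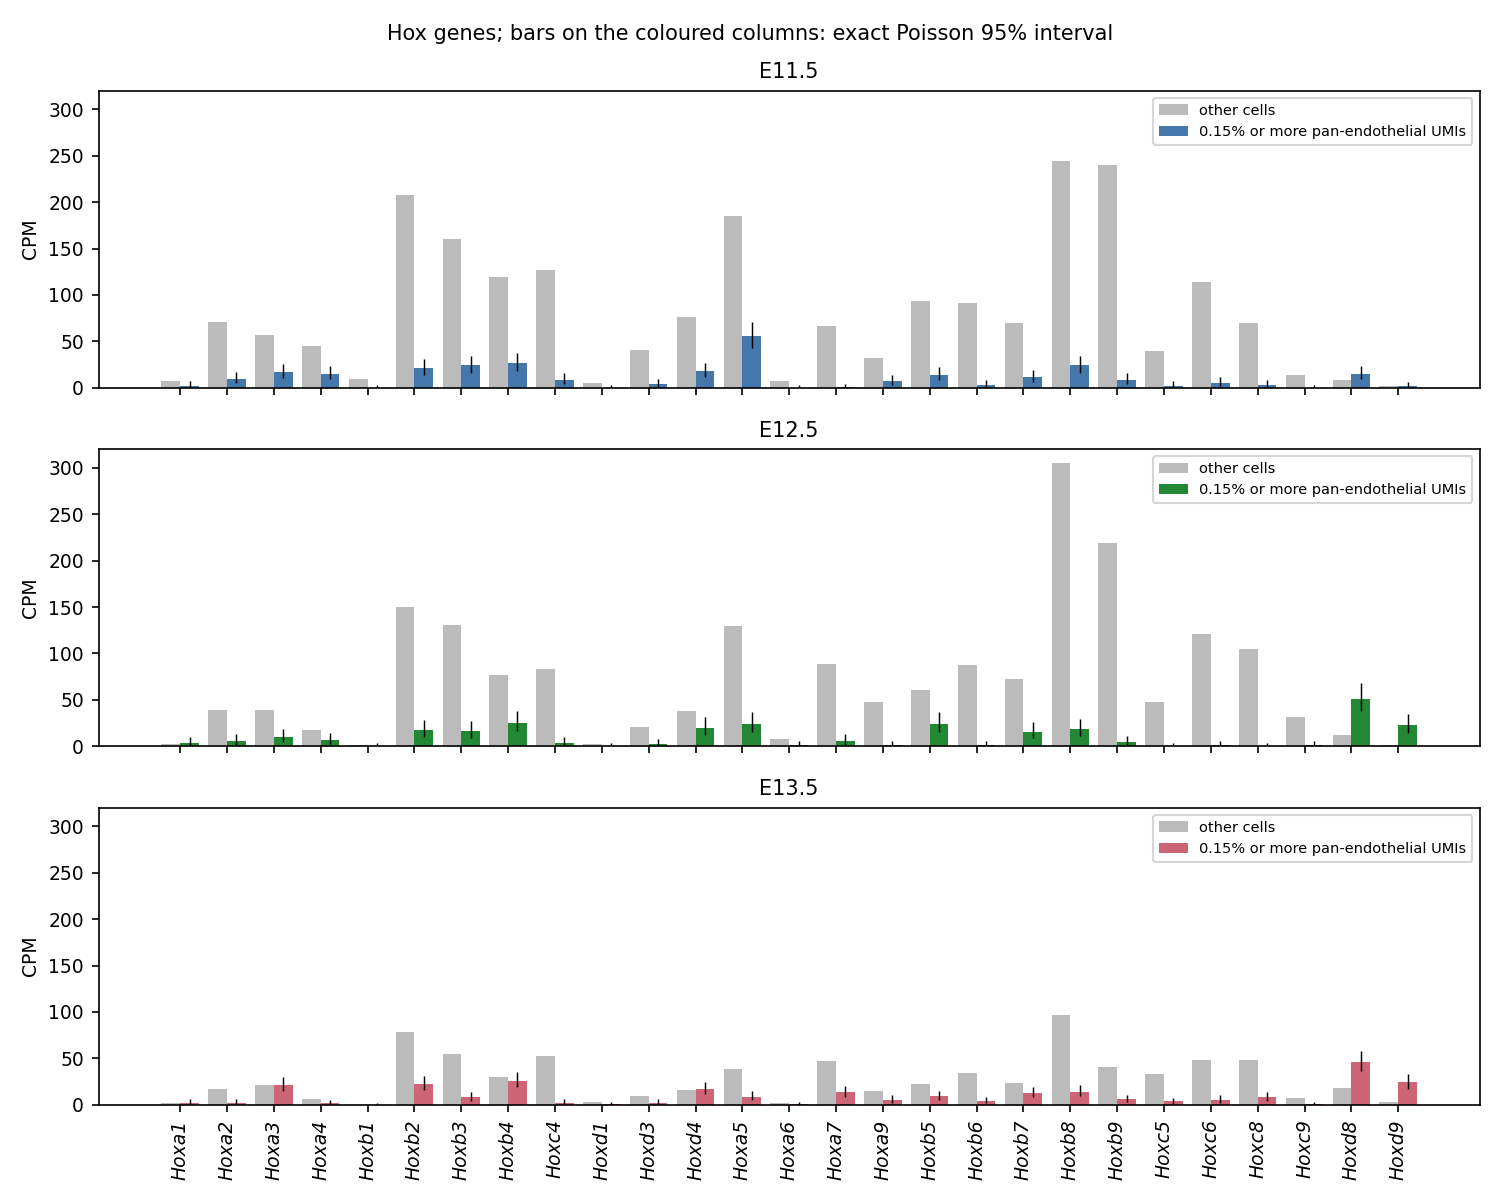
Bars give the CPM of 27 Hox genes in the marker-rich cells (coloured, with exact Poisson 95% intervals) and in the other cells (grey), in 1 panel per library, on a common axis from 0. Grey bars stand above coloured bars for most genes, and for Hoxd8 and Hoxd9 at E12.5 and E13.5 the coloured bars are higher.

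The 59 marker-poor cells carried another set of genes. Against the other cells of E12.5 and E13.5, 513 of 8754 genes (5.86%) were past the fold upward in both libraries. Those with the highest ratios among genes with a UMI in at least 30% of these cells included Slc7a11, Ranbp3l, Slc6a13, Thbd, Cldn11, Klf5, Tgm2, Cxcl16, Foxc2, Foxd2, Prdm6, Foxc1, Bmp7, Aldh1a2, Adra2a, Ildr2, Hlf, Vtn and Vamp5. These were chosen after the values were seen and are a description.

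Slc7a11, the cystine and glutamate exchanger, was at 439 and 352 CPM in the marker-poor cells of E12.5 and E13.5, 21.9 and 1.18 in marker-rich cells and 8.24 and 4.26 in the other cells. Slc6a13, a GABA transporter, was at 243 and 363 against 7.66 and 7.03 in the other cells, and Cldn11, a tight junction claudin, at 248 and 519.7 against 9.36 and 5.62. Log2 ratios over the other cells were 5.74 and 6.37 for Slc7a11 and 4.73 and 6.53 for Cldn11.

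Foxc1 was at 454 and 288 CPM and Foxc2 at 318 and 219.8 in the marker-poor cells, against 54.8 and 26.03 and 27.4 and 7.69 in the marker-rich cells. Aldh1a2, which makes retinoic acid, was at 624 and 467 against 45.99 and 0, and Bmp7 at 208 and 181 against 2.19 and 0. Ptgds was at 14.97 and 1680.0, and the other cells were at 0.649 and 34.7. Cxcl12 was at 309 and 197 against 24.1 and 36.7 in marker-rich cells.

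The 8 mesenchyme genes together were at 5647 and 5809 CPM against 2278 and 5166 in the other cells, and every marker-poor cell of these 2 libraries had some. The 24 pan-endothelial genes together were at 201 and 354 CPM, against 7396 and 7281 in marker-rich and 72.9 and 158 in the other cells. Angpt1 was at 56.6 and 59.7 against 0 and 0.592 in marker-rich cells. Tjp1, of which both kinds held more than the other cells, was at 156 and 213 against 38.5 and 44.95. Median depth was 16664 and 16092.5 UMIs, and the caller marked 1 of the 34 at E13.5 as a doublet.

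**Figure D5:**
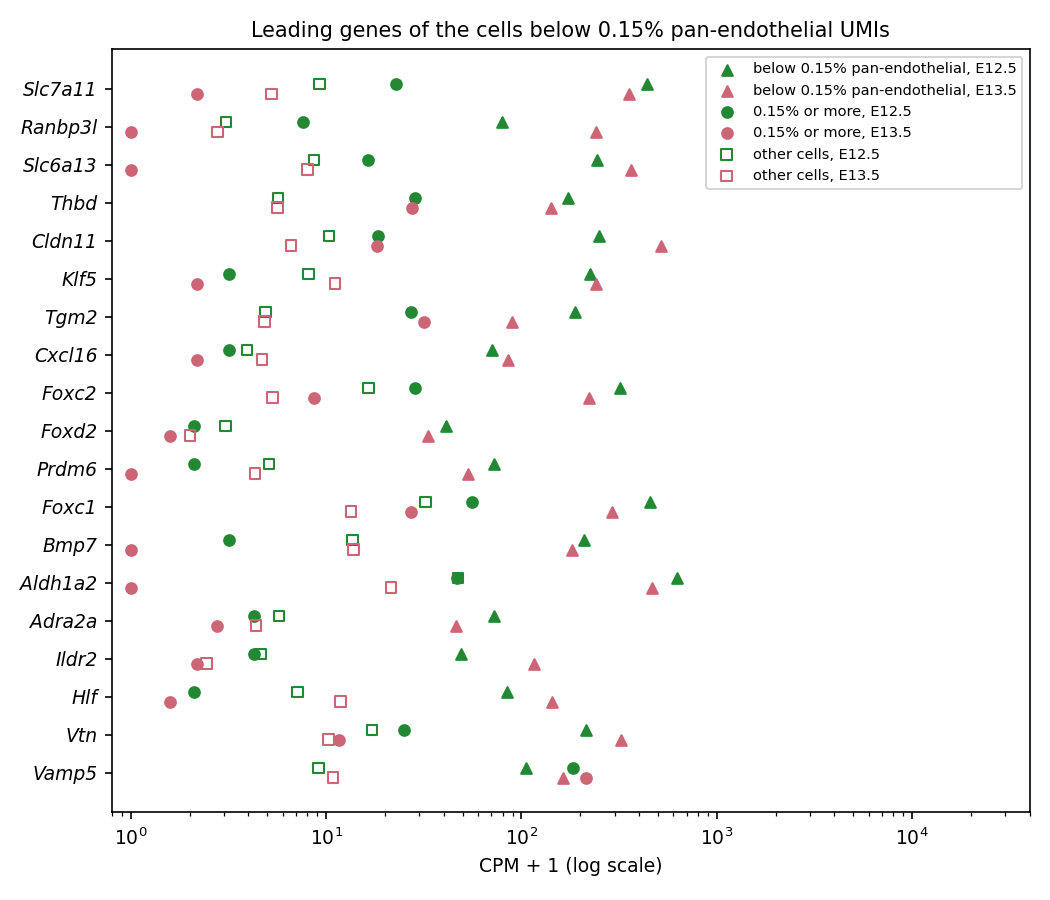
Points give CPM + 1 (log scale) of leading genes (rows) at E12.5 and E13.5 (colours) in marker-poor cells (triangles), marker-rich cells (circles) and the other cells (open squares). Triangles lie right of the squares for every gene shown, for example Slc7a11 at 439 and 352 CPM against 8.24 and 4.26.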

How the data were processed

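Single cells of 3 pools were counted by droplet RNA-seq (10x 3′ chemistry). The deposited values are raw UMI counts for 33696 genes, which Cell Ranger 8.0.1 produced for the authors against GRCm39, per the submitters' processing notes. Counts were summed over each set of cells in a library and given as CPM with exact Poisson 95% intervals. Log2 ratios carry exact conditional binomial intervals. All intervals cover counting error only, and PCR copies are collapsed by the UMIs. With 1 library per stage there was no test. A gene was past the fold at a log2 ratio of 1 or -1, with at least 5 UMIs in the cells taken of each library (against the other cells) or 20 UMIs over both libraries (between stages). Named genes were the 25 with the highest lowest-of-3 ratio and, between stages, the 12 in each direction. For the marker-poor cells they were the 20 with the highest ratio. A gene that these rules also name is not reported here. The members, gene lists and subset rules were chosen with earlier results of these data known. Doublets were called with scrublet in scanpy 1.11.5 and kept. Ratios and intervals were run on simulated Poisson counts. These hold no spread between cells, so the run cannot show how the intervals behave under such spread. Python 3.11.15, numpy 2.4.6, scipy 1.17.1 and pandas 2.3.3 were used. Alternatives covered the rule's minimum, mitochondrial limit, doublets, UMI minimums and the exclusion of cell subsets.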

Additional observations from a re-analysis of the deposited data

How the results depend on the processing

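No paired analysis was possible because each stage is 1 library and no test was made. The share of cells taken was 0.475% at E11.5 with a mitochondrial limit of 5%. At E12.5 it was 0.554% with a minimum of 8 UMIs, 0.589% with the 5% limit, 0.619% without cells holding markers of other types, 0.456% for marker-rich cells and 0.440% for those under 0.1% mesenchyme UMIs, and at E13.5 1.28, 0.778, 1.25, 1.08 and 0.970%. Genes higher at E13.5 (1001 over all cells taken) were 618 without cells holding other markers, 595 with the UMI minimum doubled, 4160 with a minimum of 1, 482 in marker-rich cells, 427 in those under 0.1% mesenchyme UMIs and 536 outside the barrier-like subset. Genes lower at E13.5 (264) were 404 with CPM averaged per cell, 150 with the minimum doubled and 1505 with a minimum of 1. Genes lower than in the other cells (168) were 52 with the 5% limit, 93 and 527 with those minimums, and 310, 283 and 258 in the 3 sets of marker-rich cells. Genes higher than in the other cells (678) stayed within 1.5 times. The number of genes compared can differ between these settings and is not given here. Over all cells taken the stage log2 ratio turned for Col2a1 (1.90 with the 5% limit). It turned for Foxc2 (-0.86 without cells holding other markers, -1.88 in marker-rich cells, -1.87 in those under 0.1% mesenchyme UMIs and -2.31 outside the barrier-like subset) and Foxd2 (-2.03, -1.91 and -2.04 in the 3 marker-rich sets). It also turned for Hlf (-1.54 without cells holding other markers, -3.62 in marker-rich cells and -3.50 in those under 0.1% mesenchyme UMIs). Cxcl16 turned in marker-rich cells under 0.1% mesenchyme UMIs (-0.33). Outside the barrier-like subset the ratio turned for Ildr2 (-0.45), Slc7a5 (0.29) and Vwf (0.66). The cause was not tested. Of 1184 values for single genes under alternatives, 992 stayed within their counting error, 177 moved beyond it and 15 turned. The sets of marker-rich cells are alternatives chosen after seeing the data. Depth limits the genes seen in few cells, and 1 library per stage leaves the spread between embryos unknown.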

Other observations

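The 7 genes of endothelium that gives rise to blood differed in how many marker-rich cells held them. Together they were at 62.1, 42.7 and 36.1 CPM, against 28.2, 52.99 and 71.98 in the other cells. Cells in transition to blood were not counted. Runx1, the factor that starts this transition, was at 14.5, 2.19 and 4.14 CPM, in 3, 2 and 3 cells, and in the other cells at 8.15, 21.8 and 27.8. Kit, a receptor of blood progenitors, was at 30.6, 32.9 and 24.8 in 20, 16 and 24 cells against 7.996, 12.05 and 8.89. Myb had a UMI in 2, 0 and 5 marker-rich cells.

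Stab1, a scavenger receptor, was at 162, 253 and 127 CPM in 47, 24 and 38 cells against 5.88, 19.7 and 35.8 in the other cells. Vwf, the adhesion protein stored in endothelial granules, was at 36.3, 36.1 and 18.9 in 12, 6 and 12 cells. The placental growth factor Pgf was at 1.61, 62.4 and 18.9, with a stage log2 ratio of 3.55 (1.58 to 6.66).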
